A study of Homo sapiens with 6 samples.

Results

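The RNA levels of 10 genes of iron storage, transport and heme breakdown were followed in IMR90, a human lung fibroblast line with a finite life span, under oncogenic RAS signalling. They are FTH1, FTL, NCOA4, TFRC, STEAP3, SLC11A2, SLC40A1, ACO1, IREB2 and HMOX1, taken by symbol from a deposited table of 58219 genes. All 10 were found, each as a single row, and all 10 passed the filter on low values. The cells express ER-RASG12V, a RAS mutant joined to an oestrogen receptor domain, which 4-hydroxytamoxifen (4OHT) switches on. They received 100 nM 4OHT for 72 h (3 libraries, labelled as committed to senescence) or for 30 h (3 libraries, labelled as uncommitted). The sample titles give these times as 3 and 1.5 days. Both groups carry the construct and received the agent, and no untreated cells and no uncommitted cells at 72 h were analysed here, so commitment and time cannot be told apart. Whether replicates A, B and C are separate cultures is not stated in the labels, and the p-values cover only the spread among these libraries, which may be technical.

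Cells take up iron mainly as transferrin bound to the transferrin receptor, release it in endosomes after reduction, and store what they do not use inside ferritin, a shell of heavy and light chains. Iron regulatory proteins bind short hairpins, the iron-responsive elements (IREs), in messenger RNAs. When iron is scarce they block translation from hairpins in the 5′ UTR, as in ferritin, and stabilise messages with hairpins in the 3′ UTR, as in the transferrin receptor. Much of the control of ferritin is therefore on translation, which RNA levels do not show. Heme oxygenase opens the heme ring and frees its iron, and iron storage and ferritin breakdown have been studied in senescent fibroblasts.

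The IREs are shown because they tie several of these genes to the same sensors. UTRs of GENCODE 29 transcripts of 8 of the genes (FTL, NCOA4, TFRC, STEAP3, SLC11A2, SLC40A1, IREB2 and ACO1) were searched for a C followed by 5 bases and CAGTG, the bulge, upper stem and loop of the hairpin. FTH1 and HMOX1 are not in the promoter set used below and were not searched, so no match of theirs could be found. Of 18 matches, 6 in 3 genes could form all 5 base pairs (G-T pairs allowed) between bulge and loop. Over principal transcripts of all protein-coding genes, such a 5-pair match stood in 0.102% of 18660 5′ UTRs and 0.54% of 18892 3′ UTRs. A further 3 matches form 4 of the 5 pairs, 1 each in the 3′ UTRs of ACO1, IREB2 and SLC11A2, and a match with 4 or 5 pairs stood in 3.77% of all 3′ UTRs. SLC11A2 has 4 matches in all, and the 4-pair one is shown because the 3′ UTR of this gene is known for an IRE in part of its transcripts. It and the 6 matches with all pairs are printed 5′ to 3′ on GRCh38, with the bulged C and the loop in capitals.
FTL, 5′ UTR, plus strand of chr19:48965335-48965364: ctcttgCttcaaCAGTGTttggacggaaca
SLC40A1, 5′ UTR, minus strand of chr2:189580660-189580689: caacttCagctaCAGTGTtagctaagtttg
TFRC, 3′ UTR, minus strand of chr3:196050978-196051007: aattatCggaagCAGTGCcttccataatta
TFRC, 3′ UTR, minus strand of chr3:196050574-196050603: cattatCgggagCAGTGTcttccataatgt
TFRC, 3′ UTR, minus strand of chr3:196050509-196050538: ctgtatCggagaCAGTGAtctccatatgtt
TFRC, 3′ UTR, minus strand of chr3:196050462-196050491: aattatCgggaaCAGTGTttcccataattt
SLC11A2, 3′ UTR, minus strand of chr12:50988268-50988297: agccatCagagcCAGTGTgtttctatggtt
The 4 printed matches of TFRC were present in 3 of 3 coding transcripts with an annotated 3′ UTR, and the printed one of SLC11A2 in 5 of 10. Among coding transcripts with an annotated 5′ UTR, the match of FTL was in 1 of 1 and that of SLC40A1 in 1 of 5. A match is a description of the letters, and no binding was measured.

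Of the 10 genes, 8 rose at 72 h and 0 fell, while SLC40A1 and HMOX1 did not pass the test. The same fit over all 13315 genes tested called 23.6% higher and 25.0% lower (limma, Benjamini-Hochberg adjusted p under 0.05). The median log2 fold change was 0.46 over the 10 genes and 0.01 over all genes tested. The largest rises were those of SLC11A2, FTH1 and FTL, at 3.25-fold, 2.70-fold and 1.71-fold. The other 5 genes that rose changed 1.15-fold to 1.47-fold. In the 8 genes that rose, every library of 72 h was above every library of 30 h, and 59.2% of all genes tested likewise showed no overlap between the groups. In the authors' deposited table the same 8 genes had an adjusted p under 0.05, the highest being 0.0150 for NCOA4.

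**Figure D1:**
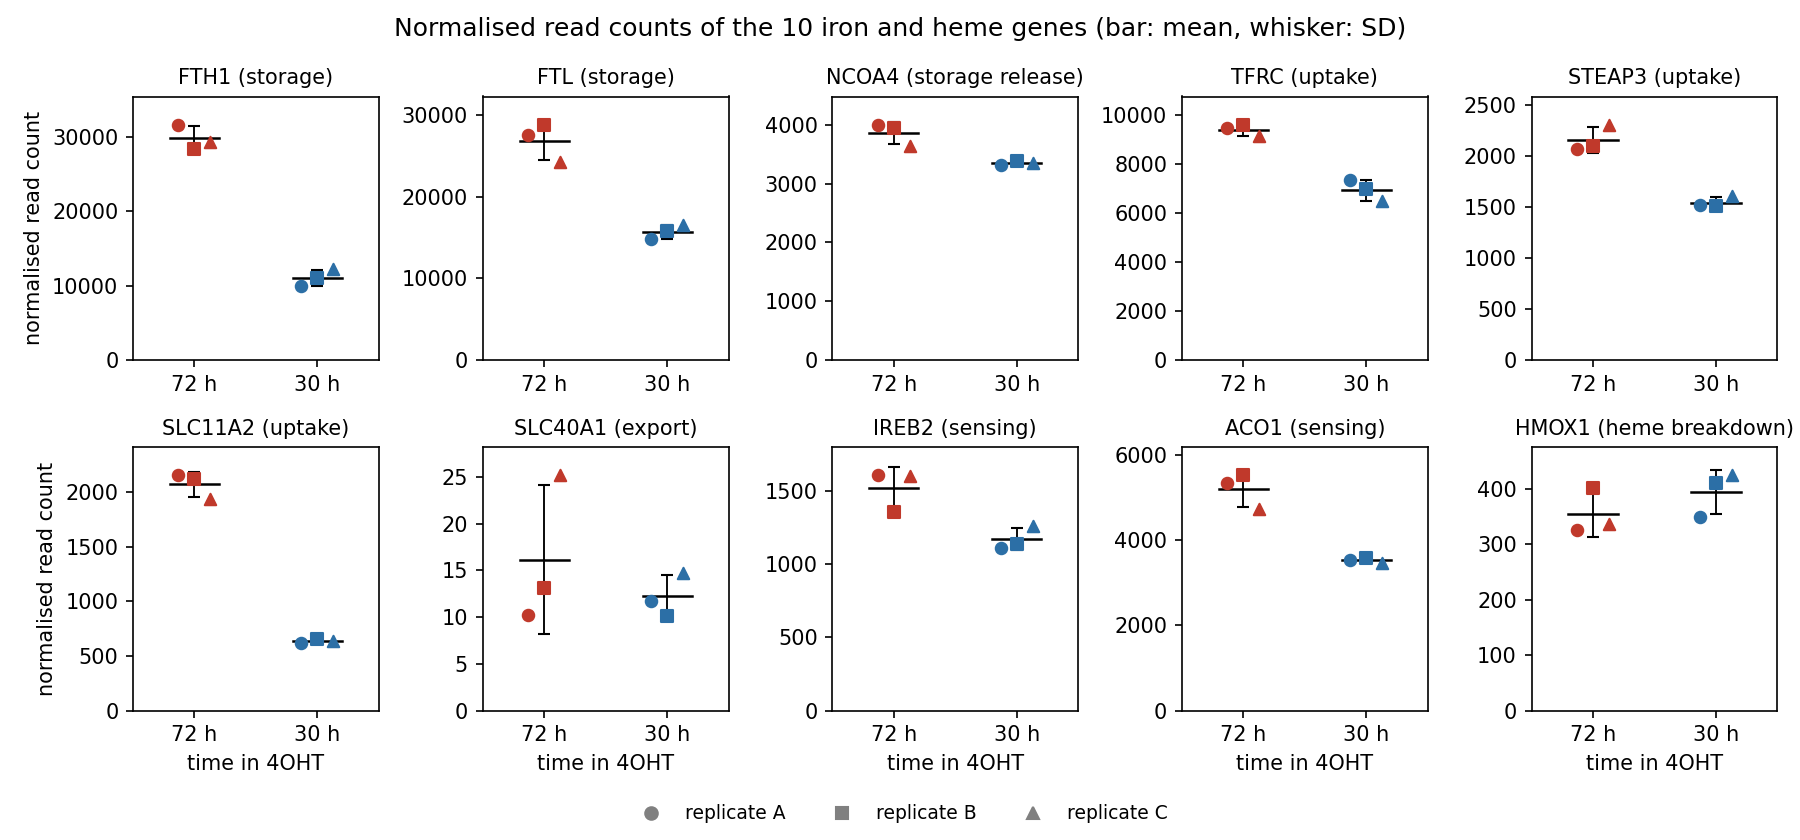
Normalised read counts (y axis, from 0, a scale of its own for each gene) of the 10 genes in each library at 72 h (left, red) and 30 h (right, blue), with marker shapes for replicates A, B and C, the mean as a bar and the SD as a whisker (n = 3). The groups overlap in SLC40A1 and HMOX1 and are apart in the other 8 genes.

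Ferritin was the most abundant product among the 10 genes in both groups. FTH1, the heavy chain with the ferroxidase activity that oxidises iron for storage (ENSG00000167996.15, chromosome 11, 61959718 to 61967660), had 31599, 28381 and 29279 normalised read counts at 72 h, against 9975, 10977 and 12188 at 30 h. The 3 libraries of 72 h were close to each other and far above those of 30 h. The log2 fold change was 1.43 ± 0.0784 (SE), with an adjusted p of 9.91e-07 by limma. FTL, the light chain, which helps form the iron core (ENSG00000087086.14, chromosome 19, 48965301 to 48966878), had 27531, 28801 and 24237 normalised read counts at 72 h, against 14789, 15736 and 16554 at 30 h. Its groups were also apart, by a smaller step. The log2 fold change was 0.77 ± 0.0751 (SE), with an adjusted p of 3.31e-05 by limma. FTH1 and FTL together took 0.428%, 0.418% and 0.385% of all reads assigned to genes at 72 h, against 0.180%, 0.193% and 0.206% at 30 h.

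The heavy chain changed more than the light chain. The ratio of FTH1 to FTL counts was 1.15, 0.985 and 1.21 at 72 h, against 0.675, 0.698 and 0.736 at 30 h. All ratios at 72 h were above all ratios at 30 h, a 1.58-fold difference. The two-sided exact permutation test gave p = 0.1, the smallest that 3 against 3 libraries allow, and 0.15 after Benjamini-Hochberg adjustment over 3 ratios. Per kilobase of the principal transcript, FTL still had the higher counts, with the limit on FTH1 reads given below. FTL had 30588 ± 2683 normalised counts per kb at 72 h and 17873 ± 1006 at 30 h, and FTH1 had 24209 ± 1351 at 72 h and 8988 ± 901 at 30 h (mean ± SD, n = 3 per group).

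**Figure D2:**
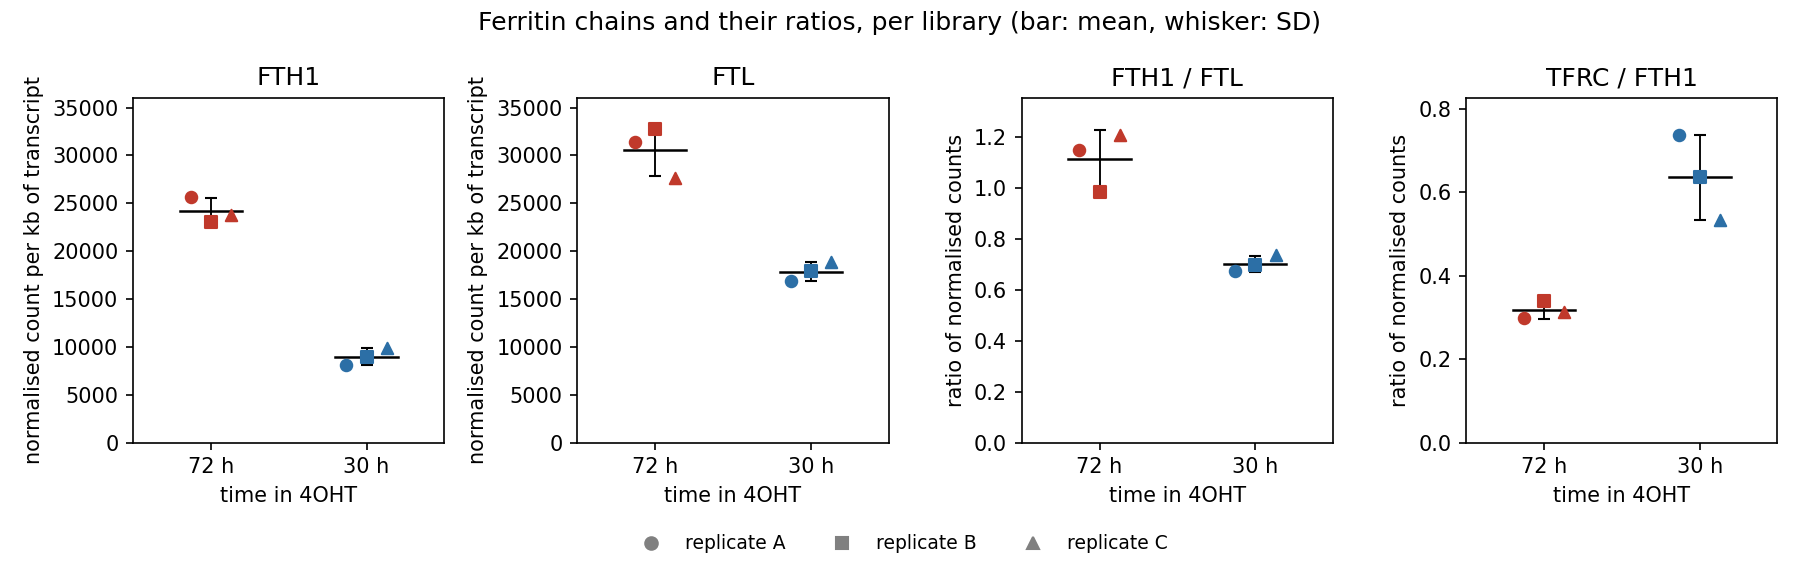
Normalised counts per kb of transcript of FTH1 and FTL (left panels, same y axis) and the ratios of normalised counts FTH1 / FTL and TFRC / FTH1 (right panels), each library at 72 h (left, red) and 30 h (right, blue), with mean and SD (n = 3). FTH1 / FTL lies at 0.985 to 1.21 at 72 h and at 0.675 to 0.736 at 30 h, and TFRC / FTH1 at 0.300 to 0.339 at 72 h and at 0.533 to 0.737 at 30 h.

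Part of the FTH1 reads is uncertain. Of its exonic bases in GENCODE 29, 62.4% overlap BEST1, a chloride channel gene on the opposite strand. The exons of FTL overlap no other gene. The sources used here do not say whether strand was used in counting. The order of FTH1 and FTL per kilobase, above and in the ranking below, is uncertain for this reason. The BEST1 row held 333, 331 and 315 reads at 72 h and 131, 94 and 139 at 30 h, and rose with a log2 fold change of 1.39 (adjusted p = 8.05e-05 by limma). FTH1 has 25 pseudogene rows in the table and FTL has 16. They held reads equal to 0.323% to 0.472% of those of FTH1 and 0.145% to 0.236% of those of FTL. With these rows added, both genes remained called with the same direction.

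NCOA4 is the receptor that carries ferritin to the lysosome, where its iron is released. It is encoded on chromosome 10 (46005088 to 46030714). NCOA4 had 4001, 3940 and 3645 normalised read counts at 72 h, against 3322, 3382 and 3344 at 30 h. The groups were apart, by the smallest step among the 8 genes that rose. The log2 fold change was 0.20 ± 0.0534 (SE), with an adjusted p of 0.0103 by limma. Leaving out 72 h replicate A ended this call (adjusted p = 0.0526 by limma, and 0.000281 to 0.0526 over 18 alternatives).

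Among the uptake genes, SLC11A2 changed most. It encodes DMT1, the transporter that moves ferrous iron out of endosomes (ENSG00000110911.14, chromosome 12, 50979401 to 51028566). SLC11A2 had 2153, 2121 and 1936 normalised read counts at 72 h, against 614, 657 and 636 at 30 h. The libraries of 72 h were far above those of 30 h. The log2 fold change was 1.70 ± 0.0614 (SE), with an adjusted p of 1.1e-07 by limma. Counts per gene do not separate its transcripts with the IRE from those without it. The tested genes most like it over the 6 libraries were PRKD3, RELA and FMNL1, with Pearson correlations of 0.999, 0.999 and 0.999. A correlation does not measure the size of a change. Their log2 fold changes were 1.29, 0.225 and 1.28, all below that of SLC11A2. The 6 points fall into the 2 groups, and 9.07% of all genes tested had a correlation above 0.95 with SLC11A2.

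TFRC, the transferrin receptor (chromosome 3, 196027183 to 196082189), had 9472, 9615 and 9141 normalised read counts at 72 h, against 7353, 6989.6 and 6496 at 30 h. The groups were apart and the step was small, with a log2 fold change of 0.44 ± 0.0593 (SE) and an adjusted p of 0.000249 by limma. The ratio of TFRC to FTH1 counts was 0.300, 0.339 and 0.312 at 72 h, against 0.737, 0.637 and 0.533 at 30 h. Uptake receptor and storage chain thus rose by unequal factors, and the ratio at 72 h was 0.502 times that at 30 h. The exact permutation test gave p = 0.1 for it, again the smallest possible, and 0.15 after adjustment. STEAP3, the reductase that turns ferric into ferrous iron in endosomes (chromosome 2, 119223831 to 119265652), had 2072, 2100.5 and 2308 normalised read counts at 72 h, against 1516, 1506 and 1612 at 30 h. Its groups did not overlap, and the log2 fold change was 0.48 ± 0.0601 (SE) with an adjusted p of 0.000153 by limma. Of its exonic bases 11.0% overlap STEAP3-AS1 on the opposite strand, a row with 0 to 4 reads per library.

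SLC40A1 encodes ferroportin, the known iron exporter of human cells (chromosome 2, 189560579 to 189583758). It had 10, 15 and 24 reads at 72 h, against 12, 10 and 14 at 30 h, and 10.2, 13.1 and 25.2 against 11.7, 10.2 and 14.8 normalised read counts. The groups overlapped, and 72 h replicate C was the highest library. The log2 fold change was 0.30, with a 95% interval of -0.50 to 1.09 and an adjusted p of 0.526 by limma. Without 72 h replicate C it was -0.06. At this depth a rise of about the size of that of FTL lay within the interval.

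The RNAs of both iron regulatory proteins rose, that of ACO1 1.47-fold and that of IREB2 1.30-fold. ACO1, which encodes IRP1, an aconitase of the cytosol when it holds an iron-sulphur cluster (chromosome 9, 32384603 to 32454769), had 5342, 5514 and 4721 normalised read counts at 72 h, against 3521, 3582 and 3458 at 30 h. Its log2 fold change was 0.56 ± 0.0642 (SE), with an adjusted p of 9.63e-05 by limma. IREB2, which encodes IRP2, a protein degraded when iron is plentiful (chromosome 15, 78437431 to 78501456), had 1605, 1352 and 1599.6 normalised read counts at 72 h, against 1112, 1139.9 and 1259 at 30 h. The log2 fold change of IREB2 was 0.37 ± 0.0796 (SE), with an adjusted p of 0.00358 by limma. The libraries of 72 h were above those of 30 h in both genes. The ratio of ACO1 to IREB2 counts was 3.33, 4.08 and 2.95 at 72 h and 3.16, 3.14 and 2.74 at 30 h. These ratios overlapped (exact permutation p = 0.4, adjusted p = 0.4). The smallest p that this test allows is 0.1, so it cannot show whether the factors are equal.

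HMOX1, the inducible heme oxygenase (ENSG00000100292.16, chromosome 22, 35380361 to 35394214), had 326, 401 and 336 normalised read counts at 72 h, against 349, 409 and 424 at 30 h. The groups overlapped. Its log2 fold change was -0.15, with a 95% interval of -0.39 to 0.08 and an adjusted p of 0.259 by limma, and it was not called under 17 alternatives (adjusted p = 0.0898 to 0.650).

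**Figure D3:**
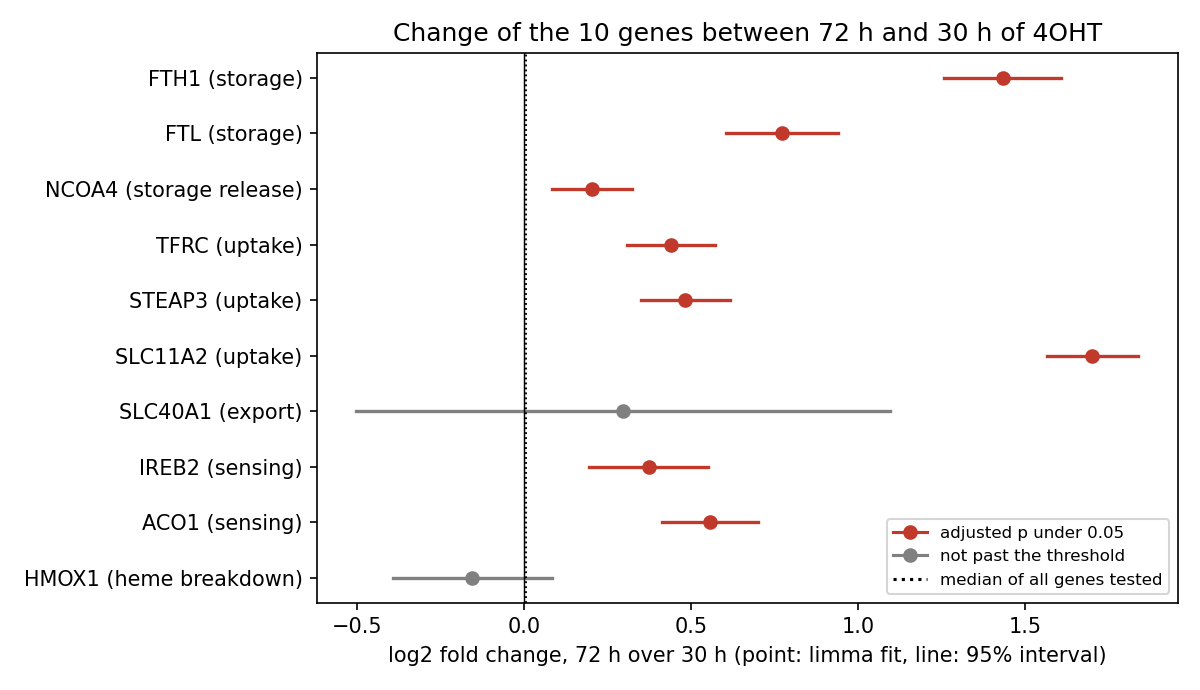
Log2 fold change of each of the 10 genes, 72 h over 30 h (x axis, limma fit as a point, 95% interval as a line), with the role in brackets, red where the adjusted p was under 0.05 and grey where not, and the median of all 13315 genes tested as a dotted line at 0.01. SLC11A2 and FTH1 lie farthest right, at 1.70 and 1.43, and the intervals of SLC40A1 and HMOX1 cross 0.

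Per kilobase of the principal transcript, the order of levels at 72 h was FTL, FTH1, TFRC, NCOA4, ACO1, STEAP3, SLC11A2, IREB2, HMOX1 and SLC40A1. At 30 h it was FTL, FTH1, NCOA4, TFRC, ACO1, STEAP3, HMOX1, IREB2, SLC11A2 and SLC40A1. SLC11A2 thus stood at rank 7 at 72 h and rank 9 at 30 h, and HMOX1 at rank 9 and rank 7. The levels ran from 30588 normalised counts per kb for FTL to 4.69 for SLC40A1 at 72 h, and from 17873 to 3.55 at 30 h. Of the neighbours in these orders, the libraries of IREB2 and HMOX1 overlapped in both groups, while the others did not, TFRC and NCOA4 at 30 h by a narrow margin (at most 1439 and at least 1440.04). TFRC and NCOA4 were close, at 1841 ± 47.5 and 1674 ± 82.5 normalised counts per kb at 72 h and 1359 ± 84.1 and 1452 ± 13.1 at 30 h (mean ± SD, n = 3).

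The promoters of the 8 genes found in the RefSeq table (GRCh38.p14) gave 13 start sites, of which the 250 bases before the start were searched on both strands. FTH1 and HMOX1 are not among them. The antioxidant response core TGACNNNGC was in 0 of 13 (10.9% of 35116 promoters of all genes), and the AP-1 site TGANTCA in 2 of 13 (6.57%), at NCOA4 and SLC11A2. The kappa B site was in 1 of 13 (18.9%), at SLC40A1. ACGTG, the core bound by hypoxia-inducible factors, was in 2 of 13 (18.5%), at FTL and TFRC. That of TFRC is shown because its promoter holds a hypoxia response element in the literature, and because it is among the genes that rose. FTL rose as well, and its match is not shown.
TFRC promoter, minus strand of chr3:196082091-196082340, ACGTG in capitals: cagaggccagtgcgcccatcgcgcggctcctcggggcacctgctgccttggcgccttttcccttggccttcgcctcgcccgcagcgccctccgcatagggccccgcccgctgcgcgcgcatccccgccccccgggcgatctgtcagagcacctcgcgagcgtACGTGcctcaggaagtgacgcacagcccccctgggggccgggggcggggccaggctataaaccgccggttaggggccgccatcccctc
The match begins at position -88 from the RefSeq start. The deposited coordinates of TFRC reach 196082189, within this window, so the match lies inside the gene as placed there. These are matches of letters in a short window, with no measurement of binding.

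Other genes of iron and heme handling, 80 in 7 lists by role, moved in both directions. Among the 63 that were tested, 17 rose and 13 fell, leaving 33 that did not pass, so 47.6% were called, against 48.6% of all genes tested. Of the 17 that rose, SLC39A8, BMP6 and HEPHL1 passed the filter on low values only through the 72 h group, so these calls had only 1 possible direction. Among the 59 genes that passed it in both groups, 14 rose and 13 fell. Over the 63 genes the median log2 fold change was 0.07. HEPHL1 had 0 reads at 30 h. It lies above this median both as fitted and with a floor of 3 reads at 30 h, so that choice cannot move the median.

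Among 7 genes tested for uptake and the transferrin cycle, 2 rose, 2 fell and 3 were not called. SLC39A14, the transporter ZIP14, which carries iron not bound to transferrin as well as zinc and manganese, had 10098, 9406 and 9982 normalised read counts at 72 h, against 2024, 2205 and 2323 at 30 h. No library of 30 h came near those of 72 h, and SLC39A14 was 4.50-fold higher (adjusted p = 3.28e-08 by limma). Its relative SLC39A8 was named because the count is small, and had 26.6 ± 6.64 normalised read counts at 72 h and 8.09 ± 1.85 at 30 h. Its libraries of 30 h were all under the filter of 10, so that its call is no support for a rise of the list. CYBRD1, a ferric reductase, fell 1.30-fold and EXOC6, an exocyst subunit needed for transferrin recycling in mouse red cell precursors, 1.67-fold. TF, the transferrin gene, had 0 normalised read counts at 72 h and 0.339 at 30 h on average and was not tested.

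In the list of export and the hepcidin axis, 2 of 4 tested genes rose and 2 fell, and both that rose were tested only because of their 72 h libraries. BMP6, a ligand that induces hepcidin in the liver, had 89.9, 96.8 and 266 normalised read counts at 72 h, against 6.82, 5.08 and 13.7 at 30 h. Replicate C was the highest library within each group, and BMP6 was 15.0-fold higher (adjusted p = 0.000764 by limma). The size of this rise depends on the added 1. Its log2 fold change was 3.91, against 3.40 with 5 added and 4.15 in the authors' deposited table. HEPHL1, a ferroxidase of the hephaestin family named because the count is small, had 11, 18 and 11 reads at 72 h and 0 in each library of 30 h. Its mean at 72 h was 12.6 times a floor of 3 reads over the 30 h group. This factor leaves out the error of the 72 h counts. HEPH, the ferroxidase hephaestin, fell 1.71-fold with an adjusted p of 0.0181 by limma, a call lost without 30 h replicate A, without 30 h replicate C and without both C libraries (0.00387 to 0.0785 over 17 alternatives). HFE, a membrane partner of the transferrin receptor, fell 1.71-fold. HAMP, the hepcidin gene itself, averaged 0.341 normalised read counts at 72 h and 0.676 at 30 h and was not tested.

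Of 17 genes tested for mitochondrial iron import and iron-sulphur cluster assembly, 4 rose, 3 fell and 10 did not pass. SLC25A37, the iron importer mitoferrin 1, had 3341, 2899 and 3242 normalised read counts at 72 h, against 1110, 1053 and 1209.6 at 30 h. It was 2.81-fold higher (adjusted p = 4.85e-07 by limma), and its groups were far apart. NFS1, the cysteine desulphurase of cluster assembly, rose 1.43-fold, while ISCA2 and NFU1, late-acting assembly factors, fell 1.57-fold and 1.34-fold. Among 10 tested cytosolic chaperones and genes for control of the iron regulatory proteins, 2 rose, 1 fell and 7 did not pass. CISD2, an iron-sulphur protein of the outer mitochondrial and endoplasmic reticulum membranes, rose 1.33-fold and MMS19, a targeting factor for cytosolic clusters, fell 1.29-fold. FAM96B, the targeting factor now named CIAO2B, rose 1.16-fold with an adjusted p of 0.0248 by limma, a call lost under 5 of 17 alternatives (0.0125 to 0.0928). FBXL5, the ubiquitin ligase subunit that directs IRP2 to degradation, had 777 ± 64.3 normalised read counts at 72 h and 839.7 ± 38.5 at 30 h (adjusted p = 0.233 by limma).

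Of 9 heme synthesis genes tested, 2 rose, 2 fell and 5 did not pass. ALAS1, the first and rate-limiting enzyme outside red cells, had 1246, 1259 and 1136 normalised read counts at 72 h, against 716, 665 and 806 at 30 h, a 1.67-fold rise (adjusted p = 6.2e-05 by limma). Its libraries of 72 h all lay above those of 30 h. UROS, a later enzyme of the pathway, rose 1.21-fold, while UROD, the enzyme after it, fell 1.21-fold and ABCB10, a mitochondrial transporter that stabilises mitoferrin 1 in mouse cells, 1.46-fold.

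Of 9 tested genes of heme breakdown, binding and transport, 1 rose, 3 fell and 5 did not pass. The 3 that fell are the other enzymes of heme breakdown. BLVRA and BLVRB, the biliverdin reductases, which act after heme oxygenase, fell 1.41-fold and 1.61-fold (adjusted p = 0.00722 and 0.00841 by limma). BLVRA had 187 ± 9.77 normalised read counts at 72 h and 266 ± 41.8 at 30 h. HMOX2, the constitutive heme oxygenase, had 569.95 ± 33.5 at 72 h and 667 ± 12.6 at 30 h (n = 3 per group) and fell 1.17-fold (adjusted p = 0.0180 by limma). The HMOX2 call was lost under 5 of 17 alternatives, among them DESeq2 and the authors' deposited table (0.0172 to 0.0683), and 6.01% of its exonic bases overlap NMRAL1 on the opposite strand. LRP1, a receptor of many ligands including heme bound to hemopexin, rose 1.32-fold.

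Of 7 genes for transcription factors of the heme and oxidant response and their adaptor, 4 rose, 0 fell and 3 did not pass. NFE2L2, which encodes NRF2, an activator of FTH1, FTL and HMOX1, had 2680 ± 109 normalised read counts at 72 h and 2083 ± 208 at 30 h and rose 1.29-fold, with 17.6% of its exonic bases shared with AC019080.1 on the same strand. KEAP1, the adaptor that directs NRF2 to degradation, rose 1.31-fold, and the small MAF genes MAFG and MAFF 1.55-fold and 1.47-fold. BACH1, the repressor of HMOX1 that heme removes from DNA, had 1554 ± 64.4 at 72 h and 1629.5 ± 133 at 30 h (adjusted p = 0.456 by limma). NRF2 and BACH1 are controlled largely as proteins, which these data do not measure.

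**Figure D4:**
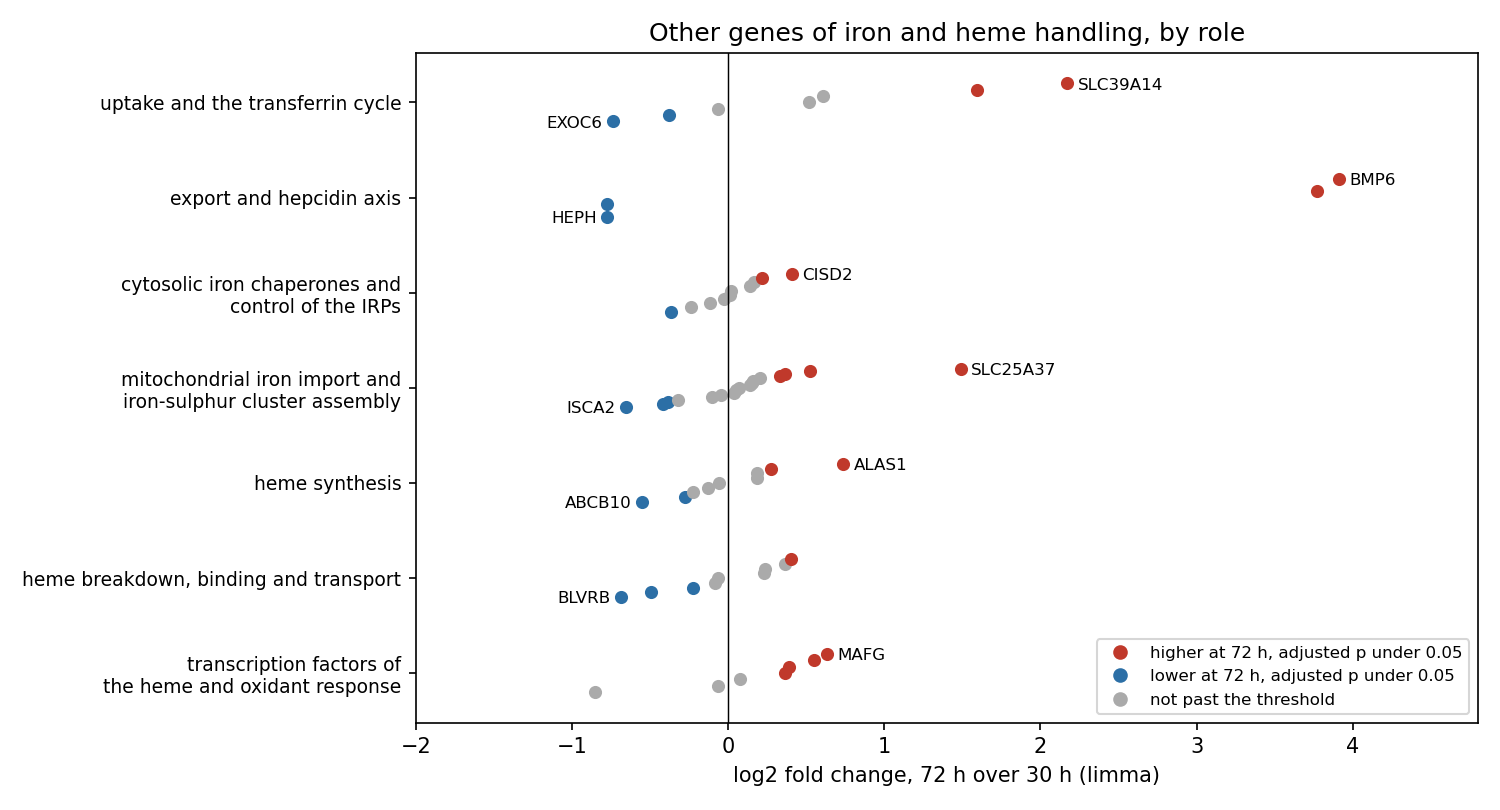
Log2 fold change, 72 h over 30 h (x axis, limma), of the 63 other iron and heme genes tested, 1 row of points per role, red for genes that rose, blue for genes that fell and grey for genes not past the threshold. Each row holds genes on both sides of 0, and the rises of BMP6 and SLC39A14 are labelled. The unlabelled red point beside BMP6 is HEPHL1, and the fitted values of both depend on the added 1.

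Library depth was 13221152 to 15703544 reads assigned to genes, with 4.23% to 4.83% mitochondrial reads in the 72 h group and 3.56% to 4.06% in the 30 h group. On the second principal component (6.99% of the variance) 72 h replicate C and 30 h replicate C stood away from the other 4 libraries. Without them 8 of the 10 genes still rose and 0 fell, and of the 80 other genes 16 rose and 15 fell. Of 9 fibroblast markers 6 fell, 0 rose and 3 did not pass, and their summed level was 60859.6 to 69949 normalised read counts at 72 h against 173181 to 183382 at 30 h. In bulk RNA, fewer cells of a type and less RNA per cell cannot be told apart. Of 7 macrophage markers, cells rich in ferritin and ferroportin, only CSF1R was tested, through its 72 h libraries, and it rose. Together they had 63.4 to 75.5 normalised read counts at 72 h, against 21.4 to 39.0 at 30 h. MARCO was at 0, and the other 5 averaged 0.640 (LYZ) to 4.63 (CD14) at 72 h and 0.325 to 7.52 at 30 h. Erythroid markers summed to 65.4 to 86.0 at 72 h, against 67.3 to 75.9 at 30 h, with HBA1, HBA2, HBB and ALAS2 at 0. EPOR alone held 64.4 to 83.9 of this at 72 h and 67.3 to 75.9 at 30 h. Epithelial markers summed to 570.2 to 681 at 72 h, against 723 to 822 at 30 h. Most of this was KRT18, at 517 to 581 at 72 h and 634 to 698 at 30 h. Endothelial markers, with CDH5 at 0, summed to 401 to 478 at 72 h, against 668 to 929 at 30 h. Nearly all of this was TEK, at 385 to 467 at 72 h and 658 to 914 at 30 h. Their part in the results was not tested.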

How the data were processed

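Trimmomatic 0.35, STAR 2.5.1b, DESeq2 1.18.1 and the build GRCh38 (hg38) are named in the submitters' processing notes. The sources used here do not name the read counter, its annotation or its strand setting. The deposited values are a signal, read counts that the authors divided by 1 size factor per library. In each library 100% of values above 0 were whole multiples, within 0.01, of the smallest, which gave back the reads. The deposited log2 fold change and the deposited adjusted p-value were used only where the authors' table is named.

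A gene entered the test if 3 or more libraries had 10 or more normalised counts, and the test was limma 3.58.1 (trend and robust options, R 4.3.3) on log2(value + 1), with Benjamini-Hochberg adjustment over all 13315 genes and a threshold of 0.05. Folds are on that scale and are 72 h over 30 h unless called a fall. The steps were tested on simulated data. Alternatives used edgeR 4.0.16 and DESeq2 1.42.0 on the recovered reads, among others. Within groups, chi-square values of 3.34 to 16.3 per degree of freedom exceeded sampling noise, so no library was treated as a second deposit of another. This does not show that they are separate cultures. Intervals cover the spread between libraries, and the floor of 3 reads covers counting error at 30 h only.

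The members and lists were chosen with earlier results of these data known. Of each list, the 4 called genes that changed most were named, given a mean of 50 or more in the higher group, and BACH1, NFE2L2, FBXL5, HMOX2 and BLVRA whatever their value; TF, HAMP, SLC39A8 and HEPHL1 were added after their values were seen. Transcript lengths, UTRs and gene overlaps are from GENCODE 29, and coordinates of genes from the deposited table. A marker gene is not reported here.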

Additional observations from a re-analysis of the deposited data

How the results depend on the processing

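Across 18 alternatives (pseudocount, filter, 3 other scalings, edgeR, DESeq2, the authors' table, the replicate block, 6 fits that leave out 1 library each, both C libraries left out, and pseudogene rows added), the calls of 9 of the 10 genes did not change, and that of NCOA4 was lost in 1. The alternative without both C libraries was chosen after seeing the data. Of 27 other named genes, 24 kept their call in every alternative run for them, and HEPH, FAM96B and HMOX2 did not, as given above; the cause was not tested. BMP6, highest in replicate C within each group, was not tested without both C libraries, since it then missed the filter on low values. Direction reversed for 0 called genes. With 1 library left out, 7 to 8 of the 10 genes rose and 0 fell, and the log2 difference of the FTH1 to FTL ratio was 0.60 to 0.75. In each of the other alternatives 8 rose. The letters of the replicates share only a name in the labels. After removal of group means, libraries of 1 letter correlated at 0.00696 for A, 0.172 for B and 0.185 for C. The same values for unlike letters are not given for comparison. The main fit did not use pairs, since the labels state none. Both C libraries stood on the same side of the second principal component, at -15.1 for 72 h and -21.4 for 30 h. Some single genes differed by letter in both groups. The epithelial marker KRT19 had 34.9 normalised read counts in 72 h replicate B and 43.7 in 30 h replicate B. The other libraries had 1.02 to 4.87. FLVCR2, of the heme transport list, had 70.3 in 72 h replicate C and 100 in 30 h replicate C. Its other libraries had 14.6 to 17.4. Whether libraries of 1 letter share a culture or a batch was not tested. With the replicate block 8 of the 10 genes rose and 0 fell, and 3271 of all genes rose and 3452 fell, against 3144 and 3328 without it. Over all genes, DESeq2 on the reads called 2645 higher and 2914 lower. The median log2 fold change of all genes stayed between -0.00351 and 0.0295 under each scaling and each library left out. Depth limits SLC40A1, whose 10 to 24 reads per library leave a wide interval.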
